A study of Mus musculus with 3 samples.

Results

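Expression of 10 genes of the NF-kappaB system was examined in RNA-seq of bone marrow (BM) Ly6G+ myeloid cells. The genes were taken by symbol from a table of 16072 named genes and all 10 were present. The rule for them uses no measured value, but they were chosen with earlier results of these data known. They comprise the 5 Rel-family factor genes (Nfkb1, Nfkb2, Rela, Relb and Rel), the inhibitor genes Nfkbia, Nfkbie, Nfkbiz and Tnfaip3, and Tnf. Values from 3 libraries were used, 2 from mice given AAV-Ctrl (the controls) and 1 from a mouse given AAV-IL-27. The AAV-IL-27 vector, built on adeno-associated virus, carries a linked form of both IL-27 subunits under the broadly active CAG promoter, and AAV-Ctrl is the empty vector. All animals were C57BL/6 mice injected subcutaneously with B16.F10 melanoma cells, and the vector followed 1 week later into muscle, so the controls also carried the tumour cells. The study used mice of 6 to 10 weeks of age and collected these cells 3 weeks after the vector. Both sexes were used, matched within an experiment, and the sex of these 3 animals is not given in the labels. Each library is taken from the labels to be 1 mouse. With 1 AAV-IL-27 library there is no replicate error for that group, so no p-value is given and each difference is set beside the gap that separates the controls from each other.

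NF-kappaB is a family of dimeric transcription factors that cells hold in the cytoplasm until a receptor such as that for TNF, or a Toll-like receptor, is engaged. In the canonical pathway the IKK kinases mark the inhibitor IkappaB-alpha, the product of Nfkbia, for destruction, and dimers of RelA, c-Rel and p50 (from Nfkb1) enter the nucleus. In the non-canonical pathway the kinase NIK drives processing of p100, the product of Nfkb2, to p52, which pairs with RelB. Several inhibitors and some of the factors are themselves targets of NF-kappaB, which closes feedback loops. In neutrophils the system is known for the control of inflammatory cytokines and of survival.

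No gene of the 10 differed by 1 log2 unit or more, and 8 of the 10 had a value in AAV-IL-27 that was above those of both controls. The largest differences were in Relb, Nfkbia and Nfkb2, at 1.49, 1.38 and 1.38 times the AAV-Ctrl mean, whereas Nfkb1 (1.00 times), Tnf (1.04 times) and Nfkbiz (1.04 times) lay close to it. A value higher than both AAV-Ctrl libraries by any amount was found in 38.9% of the 9130 genes whose FPKM averaged 1 or more, and a value lower than both in 41.9%, against 0 of the 10 genes here. FPKM counts fragments relative to the length of the transcript and the depth of the library. Differences are given as log2(FPKM + 1) of AAV-IL-27 minus the mean of AAV-Ctrl, a scale that understates the change of low genes. The median over the 10 genes was 0.17, beside -0.01 over the 9130 genes. Between the AAV-Ctrl libraries the median size of the difference was 0.061 over the 10 genes and 0.087 over the 9130 genes.

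Values were called when they lay at least 1 log2 unit beyond both AAV-Ctrl libraries. By this rule 0 of the 10 genes were higher, against 0.307% of the 9130 genes, and 0 were lower, against 2.32%. With a looser rule of 0.5 log2 unit, 1 of the 10 genes (Relb) was higher, against 1.57% of all genes, and 0 were lower, against 7.01%. Relb lay only just inside this rule, at 0.502 above the nearer AAV-Ctrl library, and Nfkbia at 0.433 and Nfkb2 at 0.405 lay just outside it.

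**Figure D1:**
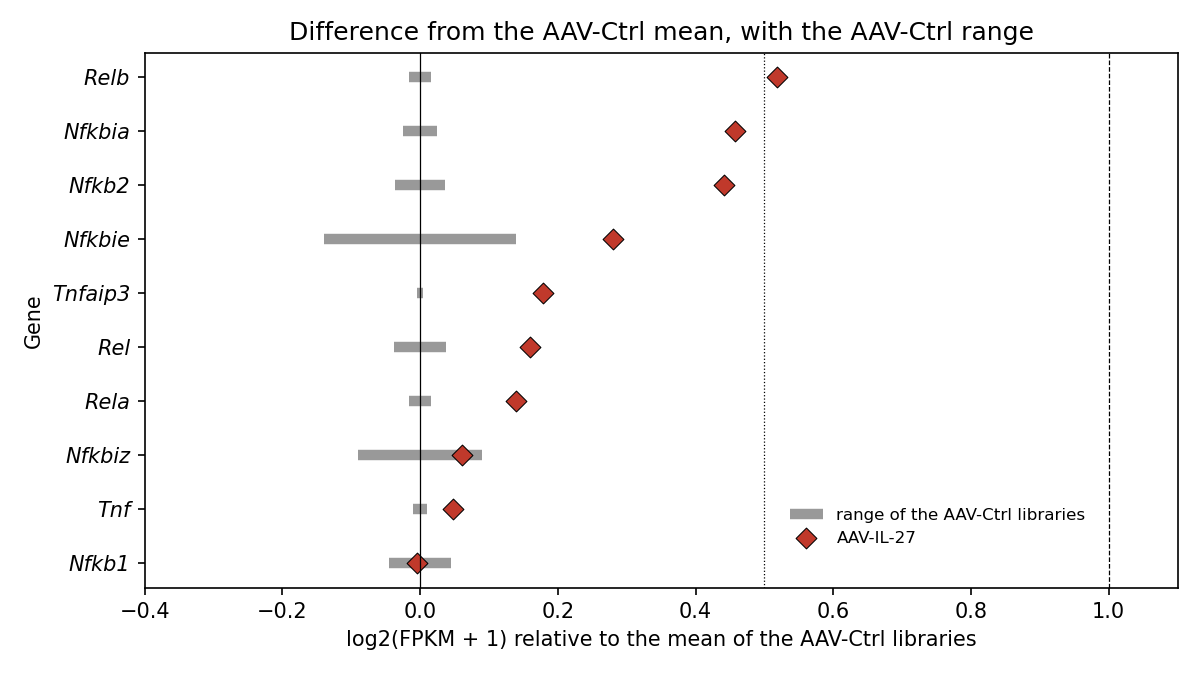
Difference of each of the 10 genes from the mean of the AAV-Ctrl libraries on the log2(FPKM + 1) scale, with genes in rows. Diamonds are the AAV-IL-27 library, grey bars span the 2 AAV-Ctrl libraries, and the dotted and dashed lines mark 0.5 and 1. Relb, Nfkbia and Nfkb2 stand at 0.44 to 0.52, well outside the grey bars, while Nfkb1 and Nfkbiz lie within them.

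The cells carried the transcripts of neutrophils in every library, with Ly6g at 711.76 and 766.11 FPKM in AAV-Ctrl 1 and 2 and at 586.29 in AAV-IL-27. The summed FPKM of 13 neutrophil markers was 184225 and 180310 in the controls and 173937 in AAV-IL-27. Most of this sum is S100a9 (73508, 71786 and 68765 FPKM) and S100a8 (41371, 38113 and 38320). Of the 13 markers, 4 were above both controls and 7 below both, against 38.9% and 41.9% of the 9130 genes. Elane (17.95, 20.90 and 26.11 FPKM) and Mpo (26.61, 32.13 and 35.44) were among the higher. Markers of other cells were also present, and some moved between the groups. The summed FPKM of 16 macrophage markers was 940.94 and 912.72 in the controls and 344.81 in AAV-IL-27, and 13 of the 15 macrophage markers with a mean FPKM of at least 1 were lower by at least 1. For 9 B cell markers the sums were 28.69, 36.37 and 4.57, for 10 erythroid markers 16252, 10855 and 1852, and for 6 megakaryocyte markers 53.0, 59.2 and 9.61. Monocyte markers summed to 1169, 1225 and 1309 over 10 genes, dendritic cell markers to 173, 259 and 144 over 10 genes, and T and NK cell markers to 14.95, 16.24 and 15.45 over 9 genes. The monocyte sum is mostly Ly6c2 (1023, 1086 and 1145 FPKM), and single markers in these sums differed more. Of the 9 monocyte markers with a mean FPKM of at least 1, 6 were above both controls and 1 below. Among the higher were Nr4a1 at 18.52, 13.17 and 35.79 FPKM, Ccr2 at 1.43, 1.61 and 2.64 and Ms4a6c at 3.08, 4.57 and 5.81. The lower one was Irf8 at 7.49, 7.89 and 4.66. The dendritic cell sum is mostly Cd74 (126.49, 185.34 and 94.94 FPKM) and H2-Aa (37.92, 57.46 and 35.58). Only 3 dendritic cell markers were at that level, of which 2 were below both controls and 0 above. Flt3, Xcr1, Clec9a and Siglech each averaged under 1. Of the 3 T and NK cell markers at that level, 0 were above both controls and 1 below, the T cell gene Cd4 (4.03, 4.25 and 2.03 FPKM). Cd3d was at 7.40, 6.35 and 7.06 FPKM, and Gzma, which averaged under 1, at 0.13, 0.38 and 1.35. No marker of these lists was listed at 0 in a library. The factors and Tnf are made by several of these cell types, so the part of these cells in each value below was not tested. In bulk RNA, fewer cells of a type and less RNA per cell cannot be told apart. The depth, estimated from how low FPKM values are spaced, was about 19000000 and 19400000 fragments in the controls and 18700000 in AAV-IL-27.

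Promoter sequences show which of these genes have a kappaB consensus, the 10-base sequence that NF-kappaB dimers bind, close to a transcription start. RefSeq windows of 250 bases before to 50 bases after a start (GRCm38.p6) were found for 7 of the 10 genes, namely Nfkb2, Rela, Rel, Nfkbia, Nfkbie, Tnfaip3 and Tnf. The consensus was searched on both strands, and matches could overlap. It was present in at least 1 window of 5 of these 7 genes, whereas 5.14% of the 27025 genes with a window had it. By window, it was in 7 of their 10 windows and in 4.51% of all 32851 windows, but overlapping windows of Nfkb2 count 1 site in both. The stretches below cover the 5 genes with a match, of which Nfkbia and Nfkb2 had the larger differences. They are read 5′ to 3′ on the strand of the gene, with the match in capitals. Relb, with the largest difference of the 10 genes, has no window among those used here.
Nfkbia (chr12:55492648-55492696, minus strand): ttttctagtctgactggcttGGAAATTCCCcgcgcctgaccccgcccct
Nfkb2, upstream window (chr19:46304678-46304736, plus strand): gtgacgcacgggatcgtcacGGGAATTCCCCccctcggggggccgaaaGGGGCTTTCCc
Nfkb2, downstream window (chr19:46305685-46305734, plus strand): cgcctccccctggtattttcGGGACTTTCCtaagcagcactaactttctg
Rel (chr11:23771031-23771081, minus strand): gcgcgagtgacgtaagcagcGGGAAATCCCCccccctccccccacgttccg
Nfkbie (chr17:45555574-45555623, plus strand): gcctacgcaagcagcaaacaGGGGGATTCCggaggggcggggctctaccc
Tnfaip3 (chr10:19015411-19015555, minus strand): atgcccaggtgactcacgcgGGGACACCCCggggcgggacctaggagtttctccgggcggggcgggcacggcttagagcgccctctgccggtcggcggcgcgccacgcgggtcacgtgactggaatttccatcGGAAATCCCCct

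In Nfkbia the match began at position -29, counted from the base before the start as -1. Nfkb2 had 2 overlapping matches beginning at -39 and -38 in its upstream window and another at -11, while its middle window had a match at -236 that is not printed. The middle and downstream windows overlap, and the match at 11 of the middle window is the same site as the one printed at -225 of the downstream window. Rel had 2 overlapping matches that began at -92 and -91, so its capitals span both. Tnfaip3 had matches at -125 and -12 from its upstream start, and none in the window of its other start. The windows of Rela and Tnf held no match, which says only that these letters are not in those windows.

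IL-27 signals through STAT factors, and the STAT consensus TTCNNNGAA was searched in the same windows. It was present in 1 of the 7 genes, Nfkb2, beside 9.55% of the 27025 genes, and in 1 of the 10 windows, beside 8.3% of all 32851. The stretch below, with the match at -148 in the upstream Nfkb2 window, shares no base with the kappaB matches of that window.
Nfkb2, STAT match (chr19:46304569-46304617, plus strand): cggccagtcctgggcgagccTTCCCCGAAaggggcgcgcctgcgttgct
A match is a description of the sequence, and binding was not measured.

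Rela and Nfkb1 were the most abundant of the family and Rel the least, in each of the 3 libraries. Rela (NCBI Gene 19697, chromosome 19 from 5637442 to 5648134 in GRCm38.p6), which encodes the main activating subunit, had FPKM values of 61.39 and 60.02 in AAV-Ctrl 1 and 2 and 66.92 in AAV-IL-27. The AAV-IL-27 value was above both AAV-Ctrl values, with a log2 difference of 0.14 against -0.03 between the AAV-Ctrl libraries. Nfkb1 (NCBI Gene 18033, chromosome 3 from 135584655 to 135691969), the source of p50, was at 40.73 and 43.40 FPKM in the controls and 41.91 in AAV-IL-27. This value fell between the AAV-Ctrl values, and the log2 difference of -0.0045 became positive when the libraries were rescaled to equal totals or by median ratios, and against AAV-Ctrl 1 alone. Rel (NCBI Gene 19696, chromosome 11 from 23736847 to 23770969) encodes c-Rel, a subunit prominent in lymphocytes and myeloid cells, and had 5.47 and 5.82 FPKM in the controls and 6.42 in AAV-IL-27. Its value was highest in AAV-IL-27, with a log2 difference of 0.16 against 0.08 between the AAV-Ctrl libraries.

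The non-canonical pair differed more. Relb (NCBI Gene 19698, chromosome 7 from 19606217 to 19629438), whose product pairs with p52, had 7.91 and 8.11 FPKM in the controls and 11.90 in AAV-IL-27. The AAV-Ctrl values were close together and both were below the AAV-IL-27 value, with a log2 difference of 0.52. A difference at least as high was found in 2.02% of the 9130 genes. Nfkb2 (NCBI Gene 18034, chromosome 19 from 46300994 to 46312400), which carries the kappaB matches shown above, had 14.06 and 13.32 FPKM in the controls and 18.94 in AAV-IL-27. Its groups did not overlap either, and the log2 difference of 0.44 was reached by 3.02% of the 9130 genes. Exons of Nfkb2 share 299 bases with Psd on the other strand, which was listed at 0.45, 0.36 and 0.52 FPKM, and 531 bases with a non-coding gene that has no row of that name in the table. Whether strand was used in counting is not given in the sources used here, and no other gene of the 10 shares exonic bases with a neighbour in GENCODE M21.

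FPKM is a value per length, so the 5 factor genes can be compared within a library. Rela made up 47.4% and 45.9% of their summed FPKM in AAV-Ctrl 1 and 2 and 45.8% in AAV-IL-27, and Nfkb1 made up 31.4%, 33.2% and 28.7%. Nfkb2 took 10.9% and 10.2% in the controls and 12.96% in AAV-IL-27. For Relb the shares were 6.11%, 6.21% and 8.15%, and for Rel 4.22%, 4.45% and 4.39%. The shares of Nfkb2 and Relb were thus highest in AAV-IL-27 and those of Nfkb1 and Rela lowest, Rela only just, while Rel lay between its AAV-Ctrl values. The FPKM ratio of Nfkb2 to Nfkb1 was 0.345 and 0.307 in the controls and 0.452 in AAV-IL-27. For Relb to Rela it was 0.129, 0.135 and 0.178.

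**Figure D2:**
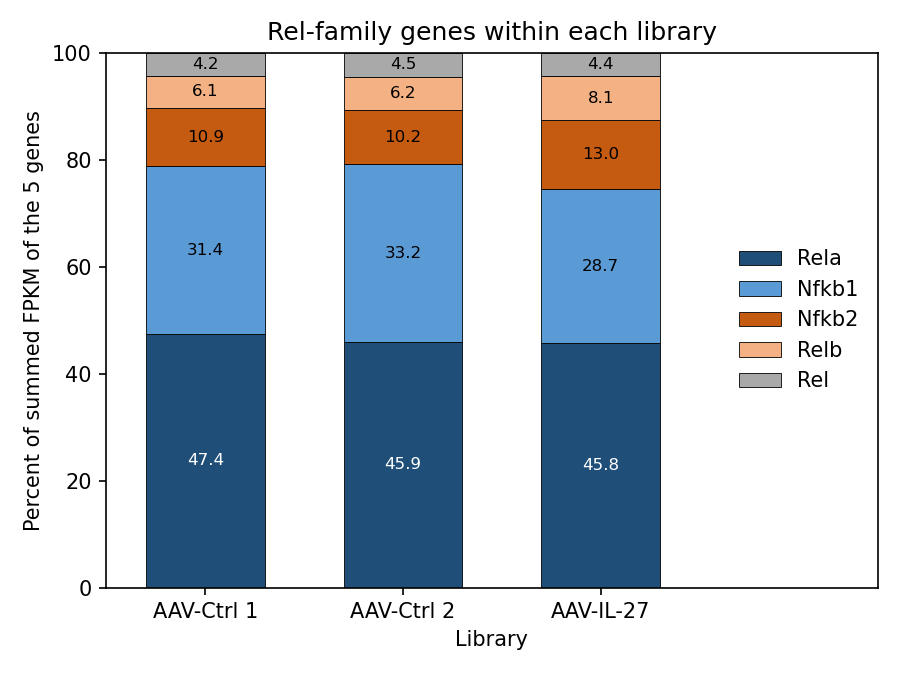
Share of each Rel-family gene in the summed FPKM of the 5 genes, in percent, as 1 stacked bar per library. Nfkb2 and Relb together take a larger part of the AAV-IL-27 bar (12.96% and 8.15%) than of either AAV-Ctrl bar, and Nfkb1 a smaller part (28.7%).

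Among the inhibitors of the 10 genes, Nfkbia had the largest difference, although Nfkbid, in the list of other inhibitors below, differed more (0.73). Nfkbia (NCBI Gene 18035, chromosome 12 from 55489409 to 55492647), which encodes IkappaB-alpha and is the best known feedback target of NF-kappaB, was the most abundant of the 10 genes. It had 84.04 and 81.22 FPKM in the controls and 113.81 in AAV-IL-27, with a log2 difference of 0.46 against -0.05 between the AAV-Ctrl libraries. A difference at least as high was found in 2.79% of the 9130 genes, and the gene moved from rank 847 and 861 by FPKM among all named genes in AAV-Ctrl to rank 613 in AAV-IL-27. Relative to Rela, whose product IkappaB-alpha retains in the cytoplasm, the FPKM ratio of Nfkbia was 1.37 and 1.35 in the controls and 1.70 in AAV-IL-27.

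Nfkbie (NCBI Gene 18037, chromosome 17 from 45555700 to 45563169), which encodes the slower feedback inhibitor IkappaB-epsilon, had 11.19 and 13.79 FPKM in the controls and 15.30 in AAV-IL-27. Its AAV-IL-27 value was the highest of the 3, but the log2 difference of 0.28 was about the same as the 0.28 between the AAV-Ctrl libraries. The difference was 0.42 against AAV-Ctrl 1 alone and 0.14 against AAV-Ctrl 2 alone, a change of more than 1.5 times that rests on the choice of control. Tnfaip3 (NCBI Gene 21929, chromosome 10 from 19000910 to 19015410), which encodes the ubiquitin-editing enzyme A20, had 7.45 and 7.50 FPKM in the controls and 8.59 in AAV-IL-27. The AAV-Ctrl values nearly coincided and the log2 difference was 0.18, a size reached by the difference between the AAV-Ctrl libraries in 20.7% of the 9130 genes. Nfkbiz (NCBI Gene 80859, chromosome 16 from 55811375 to 55838954), which encodes the nuclear protein IkappaB-zeta, a cofactor for a subset of target genes, had 24.92 and 21.87 FPKM in the controls and 24.39 in AAV-IL-27. Its AAV-IL-27 value lay between the AAV-Ctrl values.

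Tnf (NCBI Gene 21926, chromosome 17 from 35199367 to 35202007), the cytokine that both activates NF-kappaB and is one of its targets, had 17.21 and 17.46 FPKM in the controls and 17.96 in AAV-IL-27. The log2 difference of 0.05 was matched or exceeded in size by the difference between the AAV-Ctrl libraries in 69.9% of the 9130 genes. It came to 0.09 with libraries rescaled to equal FPKM totals and to 0.10 with median ratios. In both AAV-Ctrl libraries Tnf was above Nfkb2, and in AAV-IL-27 Nfkb2 (18.94 FPKM) was above Tnf.

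**Figure D3:**
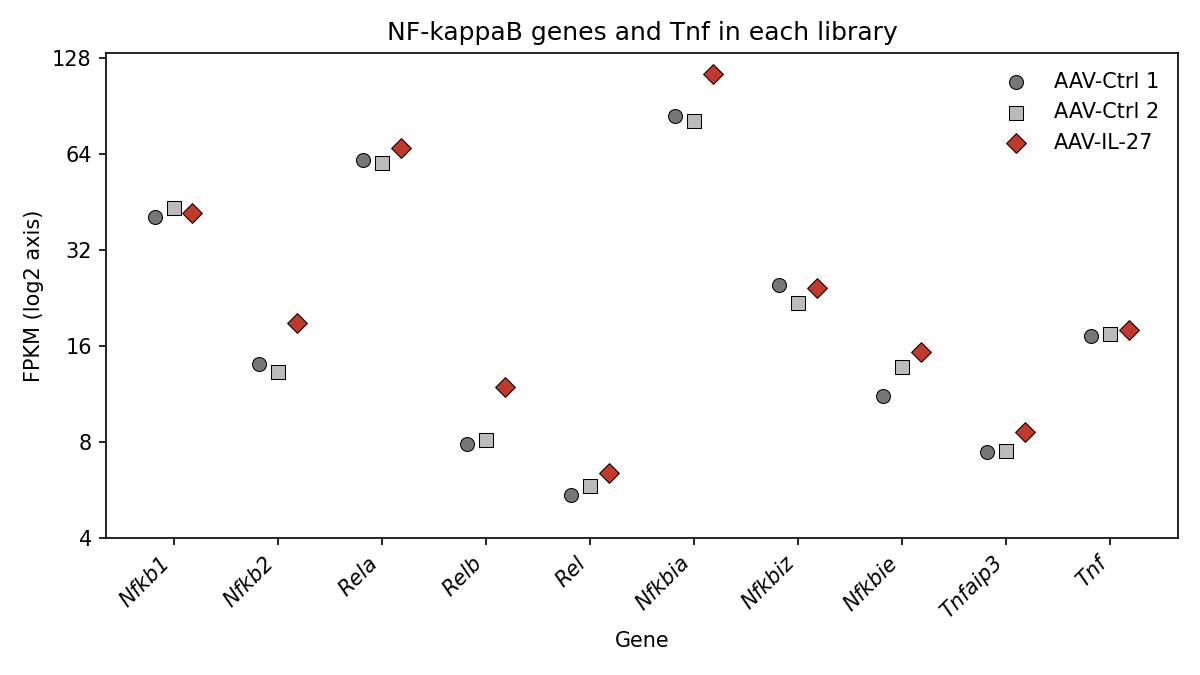
FPKM of the 10 genes in each library on a log2 axis, 1 point per library, with circles and squares for AAV-Ctrl 1 and 2 and diamonds for AAV-IL-27. Levels run from 5.47 FPKM for Rel to 113.81 FPKM for Nfkbia, and the diamonds stand clear of the grey points for Nfkb2, Relb and Nfkbia.

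In AAV-Ctrl the order of the levels was Nfkbia, Rela, Nfkb1, Nfkbiz, Tnf, Nfkb2, Nfkbie, Relb, Tnfaip3 and Rel. Values of Nfkb2 (14.06 and 13.32) and Nfkbie (11.19 and 13.79) overlapped between the AAV-Ctrl libraries, so this pair of neighbours was not separated. All other neighbours were separate in the 2 libraries, with Relb and Tnfaip3 the closest of them. From the highest to the lowest of the 10 genes the mean FPKM of AAV-Ctrl differed by 14.6-fold.

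Counting error was estimated from the depth and the shortest listed transcript of each gene. Fragment numbers were compared without scaling to a common depth, and the estimated depth was lowest in AAV-IL-27. Tnf, highest by FPKM in AAV-IL-27, thus had about 468 fragments there and 472 in AAV-Ctrl 2. Relb corresponded to about 320 and 335 fragments in the controls and 474 in AAV-IL-27, with exact Poisson intervals at the 95% level of 285.9 to 357.1, 300.1 to 372.9 and 432.3 to 518.7. For Nfkb2 there were about 777, 752 and 1030 fragments, with intervals of 723.3 to 833.6, 699.2 to 807.7 and 968.1 to 1095. Nfkbia had about 2408, 2376 and 3209 fragments, with intervals of 2313 to 2506, 2281 to 2474 and 3099 to 3322. The AAV-IL-27 interval lay above both AAV-Ctrl intervals for these 3 genes. The same held for Rela, by 2.33 fragments only and without any scaling for depth. For the other 6 genes the AAV-IL-27 interval met at least 1 AAV-Ctrl interval. Such a separation was found in 8.75% of the 8820 genes that averaged 1 FPKM or more and had a transcript length, and abundant genes reach it at smaller differences. These intervals cover counting error only and not the spread between mice, which was not analysed for AAV-IL-27.

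The remainder of the pathway was read from 4 lists of other genes. Of 18 receptor and ligand genes of the TNF family, 11 had a mean FPKM of at least 1, and their median log2 difference was 0.17. Over all 18 genes, low ones included, it was 0.03. By the rule of 1 log2 unit 0 were higher and 0 lower, against 0.307% and 2.32% of all genes. By the rule of 0.5 there was 1 of the 11 each way, against 1.57% higher and 7.01% lower. Ltb encodes lymphotoxin-beta, part of a ligand that activates the non-canonical pathway. It was at 111.39 and 123.25 FPKM in the controls and 182.85 in AAV-IL-27, with a log2 difference of 0.64. The receptor gene Ltbr was at 45.01, 41.53 and 43.54 FPKM. The lymphotoxin-alpha gene Lta, which averaged under 1, was at 0.23, 0.15 and 0.15. Both Ltbr and Lta were chosen for mention after their values were seen. Tnfrsf13c, the receptor for the B cell survival factor BAFF, was at 1.36, 1.63 and 0.23 FPKM, a log2 difference of -1.02 that came to -2.27 and -2.64 with pseudocounts of 0.1 and 0.01. With these pseudocounts, or without AAV-Ctrl 1, the number of lower genes in the list by the rule of 1 was 1. B cell markers were lower in the same library. The abundant TNF receptor gene Tnfrsf1a was at 176.39, 169.56 and 194.15 FPKM and the ligand gene Tnfsf14 at 66.36, 62.06 and 70.19.

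Kinases and adaptors spanned the narrowest range of these 4 lists. Of 26 genes, 25 had a mean FPKM of at least 1, their median log2 difference was 0.07, and 0 were called either way by both rules, the looser of which called 1.57% of all genes as higher and 7.01% as lower. Values ranged from -0.23 for Tab3 to 0.46 for Map3k14, both named after their values were seen. Map3k14 encodes NIK, the kinase of the non-canonical pathway, and had 13.52 and 14.37 FPKM in the controls and 19.49 in AAV-IL-27. The most abundant genes of the list were Bcl10 (69.04, 69.03 and 78.83 FPKM), Tab2 (65.28, 59.62 and 70.10) and Card9 (62.68, 67.35 and 60.42), which encode signalling adaptors. Bcl10 and Tab2 were highest in AAV-IL-27 and Card9 lowest there.

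Of 20 other inhibitor genes, 19 had a mean FPKM of at least 1, with a median log2 difference of 0.02. None was called by the rule of 1 log2 unit in either direction, and 1 of the 19 was higher and 0 lower by the rule of 0.5, against 1.57% and 7.01% of all genes. The higher gene was Nfkbid, which encodes the nuclear inhibitor IkappaB-NS, at 23.75 and 24.26 FPKM in the controls and 40.52 in AAV-IL-27, with a log2 difference of 0.73. The most abundant of the list, Zfp36, whose product destabilises mRNAs such as that of Tnf, was at 864.34, 893.36 and 1023 FPKM. Tax1bp1, an adaptor of A20, was at 84.56, 79.61 and 83.24 FPKM, and Rnf11, another partner of A20, at 87.41, 75.54 and 71.75. Nfkbid and Zfp36 were thus above both AAV-Ctrl values, Tax1bp1 lay between them and Rnf11 was below both.

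Known target genes were spread more widely. Of 47 genes listed, 44 were in the table and 33 had a mean FPKM of at least 1, with a median log2 difference of 0.23. Over all 44, low ones included, it was 0.03. By the rule of 1 log2 unit 6 of the 33 were higher, against 0.307% of all genes, and 1 was lower, against 2.32%. By the rule of 0.5 the counts were 8 and 1, against 1.57% and 7.01%. Higher values were found for Csf1, the macrophage growth factor gene, at 17.91 and 11.10 FPKM in the controls and 68.01 in AAV-IL-27. Chemokine genes were also among them, with Ccl3 at 9.63, 8.44 and 39.20 FPKM, Ccl4 at 4.00, 3.51 and 16.42 and Cxcl10, a gene that interferons also induce, at 1.29, 2.85 and 11.80. The survival genes Bcl2a1b (6.83, 7.34 and 19.51 FPKM) and Bcl2a1d (1.61, 1.5 and 5.41) were higher as well, but they are near-identical copies, so their single values are uncertain. For each of these 6 genes the AAV-IL-27 value exceeded both AAV-Ctrl values. Bcl2a1a, named here as another Bcl2a1 copy in the list, was at 5.35, 5.65 and 6.60 FPKM and was called by neither rule. The looser rule added Marcksl1, an actin-binding protein gene, at 116.82, 107.88 and 217.95 FPKM, and the neutrophil chemokine gene Cxcl2 at 7.98, 9.38 and 15.62. The lower gene was Vcam1, an adhesion molecule gene, at 87.83, 86.73 and 16.02 FPKM, and macrophage markers were lower in the same library. The 3 most abundant targets were called by neither rule, with Lcn2 at 11242, 12046 and 10290 FPKM, Mmp9 at 3049, 3460 and 3144 and Il1b at 500.01, 380.90 and 478.72.

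**Figure D4:**
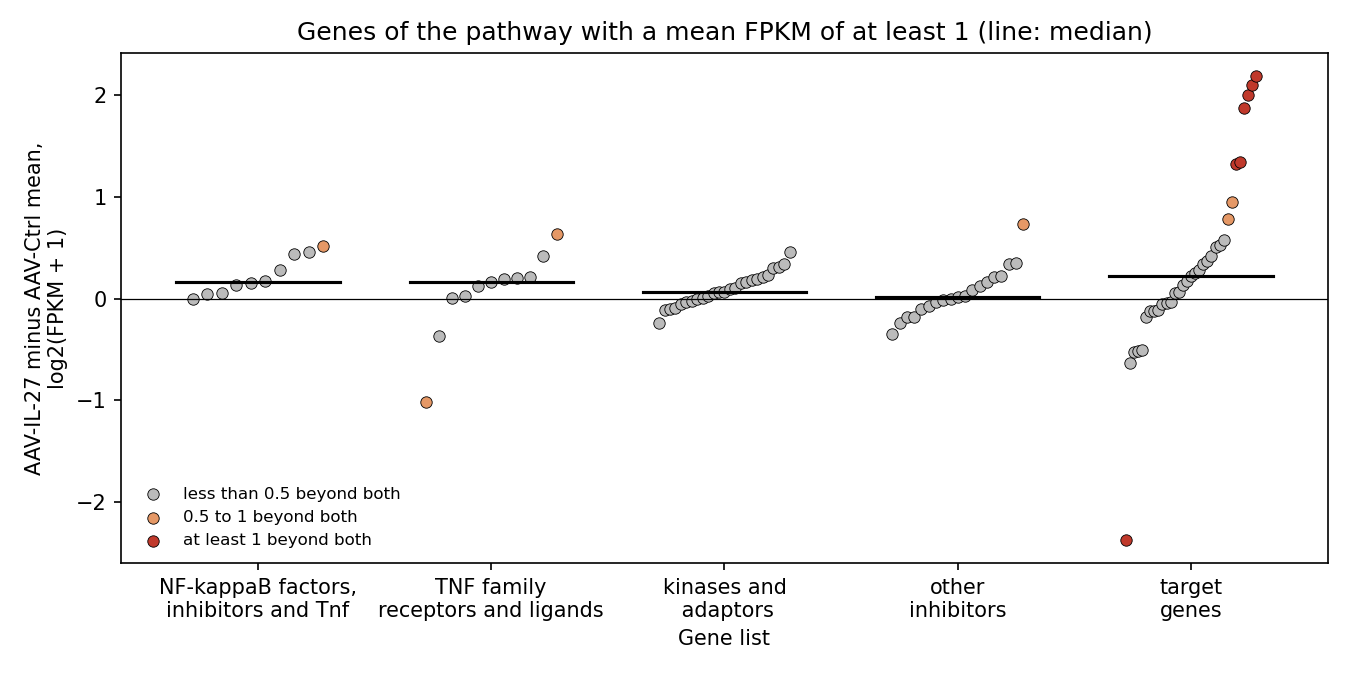
Log2 difference of each gene with a mean FPKM of at least 1, AAV-IL-27 minus the mean of AAV-Ctrl, for the 10 genes and 4 lists of other pathway genes. Points are genes, coloured by how far they lie beyond both AAV-Ctrl libraries, and lines are medians. The 5 medians lie between 0.02 and 0.23, and the points at least 1 beyond both libraries are all in the list of target genes.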

How the data were processed

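The authors enriched mRNA with oligo-dT, made strand-marked cDNA and sequenced it on a DNBSEQ platform, and deposited FPKM values with 2 decimals for 16073 rows, of which 1 without a gene symbol was left out. The submitters' processing notes name mm10, the UCSC name of GRCm38. The aligner and counting tool are not given in the sources used here. The table holds 1 more column of per-sample values, named as another IL-27 library, which matches no listed sample and was not used, and the design text counts 4 mice but assigns 3. Differences were computed with a pseudocount of 1 and counted among genes averaging 1 FPKM or more, and no test was run. Genes are keyed by NCBI Gene numbers, and all 10 matched RefSeq (GRCm38.p6), which also gave the promoter windows. Depth was estimated by fitting FPKM steps to whole fragments, with GENCODE M21 lengths less 70 bases. The fit used 144, 124 and 124 low values in the 3 libraries (AAV-IL-27 last), of which 75.7%, 64.5% and 64.5% fell within 0.15 of a whole fragment, so the numbers of fragments are approximate and count models were not applied. The depth and call steps were tried on data simulated by the same length rule, with counting error only and changes larger than those of the 10 genes. Such data hold no spread between mice, so they do not show how the steps perform on it. Genes named are the 10 genes and, in each pathway list, those at least 0.5 log2 unit beyond both AAV-Ctrl libraries and the 3 most abundant, and others are marked. The 10 genes, the pathway lists and the rules were chosen with earlier results of these data known. Alternatives were other pseudocounts, filters, scalings and call rules and leaving out each AAV-Ctrl library. Scripts used scipy 1.17.1, pandas 2.3.3, numpy 2.4.6 and Python 3.11.15, with matplotlib 3.10.9 for plots.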

Additional observations from a re-analysis of the deposited data

How the results depend on the processing

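The counts of 0 higher and 0 lower genes of the 10 by the rule of 1 log2 unit stayed at 0 with pseudocounts of 0.1 and 0.01, without a filter, among genes averaging 5 FPKM or more, with both rescalings and without either AAV-Ctrl library. With a rule of 0.5, 1 gene was higher and 0 lower, and that count of 1 was the same under each of these settings, a combination chosen after seeing the data. The median of 0.17 became 0.20 with libraries rescaled to equal FPKM totals and 0.22 with median ratios, which shift the median of all genes by 0.037 and 0.053, and leaving out AAV-Ctrl 1 gave 0.15 and leaving out AAV-Ctrl 2 gave 0.19. The number of the 10 genes above both AAV-Ctrl libraries was 8, and it was 9 with equal totals (46.5% of all genes) and 10 with median ratios (49.98%). Against a single AAV-Ctrl library, 9 genes were above and 1 was below, whichever library was left out. Of all genes, 48.7% were above without AAV-Ctrl 1 and 47.8% without AAV-Ctrl 2. Over the settings, the log2 difference ranged from 0.50 to 0.57 for Relb, from 0.43 to 0.52 for Nfkbia and from 0.40 to 0.50 for Nfkb2, while that of Nfkb1 ranged from -0.05 to 0.05 and that of Nfkbiz from -0.03 to 0.15. The difference of Tnf ranged from 0.04 to 0.10. Among the pathway lists, dropping the filter on low values took the median of the target genes from 0.23 to 0.03 and that of receptors and ligands from 0.17 to 0.03, and median ratios took that of kinases and adaptors from 0.07 to 0.12 and that of other inhibitors from 0.02 to 0.08. Of 60 values of the 10 genes under alternatives, 15 moved by over 1 SD of the controls. The count of all genes at least 1 lower was 212 and became 396 and 425 with pseudocounts of 0.1 and 0.01 and 93 among genes averaging 5 FPKM or more. That of higher genes was 28 and became 42, 46 and 22, and it was 40 and 49 without AAV-Ctrl 1 and 2. No paired analysis was made, since the labels give replicate numbers and do not say that equal numbers form a pair. With a single AAV-IL-27 library, none could be left out there, and neither mouse-to-mouse spread nor the label of that library was checked here.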
